A study of Drosophila melanogaster with 3 samples.

Results

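One-directional protein-coding promoter peaks are the places where CG17359 tagged with green fluorescent protein (GFP) was found beside a protein-coding gene that does not share its promoter with a coding gene running the other way. They were taken from the authors' thresholded list of 7287 peaks by position alone. The summit, the base that the authors' peak caller gave as the highest point, had to lie within 500 bp of a protein-coding transcription start site, and no other coding gene could start on the opposite strand within 1000 bp upstream of any such site. This gave 1760 peaks, or 24.2% of the list, and 1713 of them had start sites of a single gene in the window. Another 1079 peaks lay at divergent promoters, where such an opposite start site was present, and 4448 lay over 500 bp from every protein-coding start site and are called distal here.

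The peaks came from chromatin immunoprecipitation sequencing (ChIP-seq) of whole Drosophila melanogaster embryos, collected at 0 to 14 h of age. The flies came from a stable transgenic line carrying CG17359 with GFP joined to its C-terminus, and sonicated chromatin was precipitated with an anti-GFP antibody. All 3 biological replicates belonged to this 1 group, sex was not recorded, and 1 control was shared by all replicates. No other tagged line, untagged strain or stage was analysed here, whole embryos mix every cell type of the stages collected, and sequencing depth is unknown because peak lists carry no read counts.

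A promoter is the stretch of DNA beside a start site where the transcription machinery assembles. In flies many promoters carry short sequence elements, such as the TATA box bound by TBP, the Initiator at the start site itself, the DNA replication-related element (DRE) bound by Dref and BEAF-32, and Motif 1 bound by M1BP. DRE and Motif 1 are best known from genes used in most cells, and the TATA box and Initiator from genes with regulated expression. Fly genes are densely packed, and many lie head to head with a common upstream region, so promoters with a single coding direction allow upstream and downstream to be told apart. CG17359 encodes a zinc finger protein counted with the ZAD family, a large insect family of DNA-binding proteins.

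Many of the strongest one-directional promoter peaks lay in sequence rich in runs of A and T. The following 4 windows reach 50 bases to either side of the summits of strong members and are shown for those runs; all lie upstream of every annotated start site of the gene and outside exons. They are written 5′ to 3′ on the strand of the gene, from the dm6 (Release 6) reference, and capitals mark runs of 6 or more bases that are all A or T. CG14100 (chr3L:19590569-19590669, minus strand) held the strongest peak of the whole list, CG18549 (chr3R:12449116-12449216, plus strand) the fourth strongest member, Gapdh2 (chrX:15867929-15868029, plus strand), which encodes a glycolytic dehydrogenase, the sixth, and CG1635 (chr3R:31588485-31588585, plus strand) the ninth.
CG14100: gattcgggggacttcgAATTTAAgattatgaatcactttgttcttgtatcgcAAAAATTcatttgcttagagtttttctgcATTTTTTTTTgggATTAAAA
CG18549: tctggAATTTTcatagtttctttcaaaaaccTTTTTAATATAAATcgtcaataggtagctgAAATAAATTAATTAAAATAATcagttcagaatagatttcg
Gapdh2: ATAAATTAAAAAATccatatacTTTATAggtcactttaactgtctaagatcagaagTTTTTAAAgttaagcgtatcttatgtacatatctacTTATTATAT
CG1635: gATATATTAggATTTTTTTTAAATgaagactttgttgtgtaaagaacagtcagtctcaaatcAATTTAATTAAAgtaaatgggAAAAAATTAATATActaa

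These runs covered 31, 41, 37 and 47 bases of the windows in CG14100, CG18549, Gapdh2 and CG1635. In windows chosen the same way but not shown, they covered 44 bases at RluA-1 and only 21 at ph-p. The ph-p peak was stronger than that of CG18549. Over all 1760 members the median was 24 bases. It was 32 in the 20% of members with the highest signal values and 15.5 in the 20% with the lowest. At one-directional start sites without a peak, in windows placed at the members' median position, the median was 16. Among members it was 27 for summits 51 to 250 bp upstream but 7 for those within 50 bp of the start site. Of the strongest 20%, 85.2% lay over 50 bp upstream, against 56.0% of the weakest 20%. The part of position in the contrast by signal value was not tested.

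A second set of windows is shown for known protein binding elements near the summit, which few members held. The windows again lie upstream of every annotated start site, on the strand of the gene, and capitals mark the match. Rab35 (chrX:20160004-20160104, minus strand; a small GTPase gene) held the DRE, searched as TATCGATA. The gene lute (chr3R:17385752-17385852, plus strand) held Motif 1, searched as GGTCACAC and present there as its reverse complement. The gene dco (chr3R:31061482-31061582, minus strand; a casein kinase gene of the circadian clock) held 3 matches to a core of the CTCF site, searched as AGNNGGCGC, of which 2 were on the other strand. The gene fray (chr3R:18584149-18584249, plus strand) held a Su(Hw) core, searched as TGCATACTT or TGCATATTT.
Rab35: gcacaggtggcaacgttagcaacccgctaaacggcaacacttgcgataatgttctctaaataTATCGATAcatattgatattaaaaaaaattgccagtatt
lute: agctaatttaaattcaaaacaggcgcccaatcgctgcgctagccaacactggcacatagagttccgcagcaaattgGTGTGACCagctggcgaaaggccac
dco: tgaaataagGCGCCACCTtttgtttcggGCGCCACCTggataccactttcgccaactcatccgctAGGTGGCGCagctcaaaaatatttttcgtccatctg
fray: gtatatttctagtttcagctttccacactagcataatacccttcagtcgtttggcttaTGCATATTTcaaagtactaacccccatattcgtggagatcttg

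The peaks were recovered in each replicate. Among the 7287 strongest peaks of a replicate list, a peak overlapped 87.3% of the members in replicate 1, 88.9% in replicate 2 and 88.8% in replicate 3 (mean 88.3% ± 0.903, SD, n = 3). The share was 90.1% ± 1.28 for divergent promoter peaks and 86.9% ± 2.93 for distal peaks. Because the replicate lists went into the thresholded list, part of this overlap is built in. At 1280 members (72.7%) a strong peak was present in all 3 replicates, and there the summit moved little: the median SD of its position over the replicates was 19.5 bp, and 91.9% of these members had the summit on the same side of the start site in every replicate. When the rule was applied to the 7287 strongest peaks of each replicate, it found 1830, 1825 and 1714 peaks in replicates 1, 2 and 3 (1790 ± 65.6, SD).

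Coding genes with a one-directional promoter carried a peak less often than divergent ones. Of 8893 genes with no divergent start site, 1365 (15.3%) had a thresholded summit no more than 500 bp from a start site, as had 1961 of 5052 divergent genes (38.8%). Replicates gave 15.7%, 16.3% and 14.8% of one-directional genes, against 39.8%, 39.7% and 39.6% of divergent genes. The ranges did not overlap, and the difference was −24.1 ± 0.70 percentage points (SD, n = 3). Its two-sided exact sign-flip permutation p over the replicates was 0.25, the smallest this test can give with 3 replicates, so it cannot bring any difference between classes below 0.05. A summit between divergent genes counted for both of them, which raises the divergent share by construction. The members had 1502 nearest genes, of which 175 also had a divergent start site elsewhere and were therefore counted with the divergent genes. These 175 had 3.41 start sites on average, against 1.97 for the other member genes. Since 1 divergent start site or 1 summit at any start site sufficed, the number of start sites also enters both shares. Its part in the difference was not tested.

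Summits lay mostly upstream of the start site, in a broad band. The median member summit was 138 bp upstream, the middle part of the distribution lay between −263 and −9 bp (quartiles, negative values upstream), and the fullest bin of 25 bp, with 6.48% of the members, ran from −175 to −150 bp. In replicates 1, 2 and 3 the median was at −144, −110 and −152 bp for members, against −84.5, −73.0 and −85.0 bp for divergent promoter peaks. The member median was the farther upstream in every replicate, with a difference of −54.5 ± 15.6 bp (SD; exact sign-flip p = 0.25). This size depended on the window: with 250 bp in place of 500 bp the mean difference was −10 bp (exact sign-flip p = 0.5). Divergent distances are bounded by the gap between the opposed start sites, since the nearer site is used. Where that gap was over 500 bp, the divergent median was −107 bp. Summits upstream of the start site made up 76.3% of members and 75.5% of divergent promoter peaks, a difference whose sign changed between replicates (0.144 ± 0.824 percentage points, SD, n = 3; exact sign-flip p = 1).

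**Figure D1:**
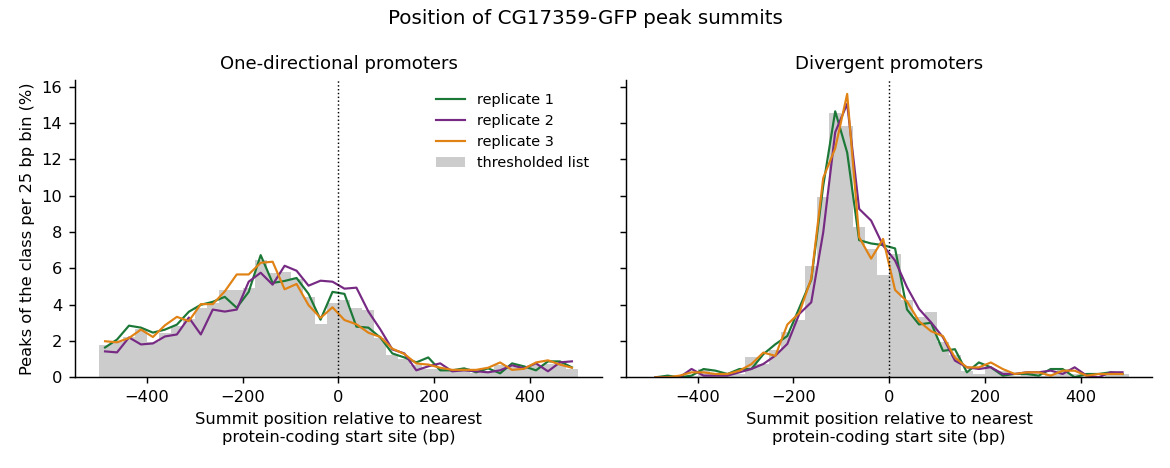
Share of one-directional (left) and divergent (right) promoter peaks in each 25 bp bin of summit position relative to the nearest protein-coding start site (negative is upstream); grey bars are the thresholded list and lines the 3 replicates. The one-directional summits spread broadly over the upstream window with a second shoulder at the start site, and the divergent summits form a narrower band.

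The position depended on which start site of a gene was taken. Of the 1760 members, 674 lay at genes with a single annotated start site, 435 at the first of several and 651 at an internal one. The median was −136 bp at single start sites, −121 bp at first ones and −169 bp at internal ones, with replicate means of −133 ± 21.8, −118 ± 22.6 and −154 ± 25.2 bp (SD, n = 3). At internal start sites 482 summits (74.0%) lay in introns of annotated transcripts. Measured from the most upstream start site of the nearest gene instead, the median of all members was 5 bp and 49.4% lay upstream, and the median stood 63.3 bp downstream of the divergent one in place of upstream of it. At genes with a single start site 81.9% of the summits lay upstream, and no such choice arises there.

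The members were divided into 5 position classes. The largest held 746 members (42.4%) with summits 51 to 250 bp upstream, and 473 members (26.9%) lay over 250 bp upstream. Summits within 50 bp of the start site numbered 269 (15.3%), those 51 to 250 bp downstream 175 (9.94%) and those over 250 bp downstream 97 (5.51%). Divergent promoter peaks had 59.8%, 3.06%, 23.7%, 11.5% and 1.95% in the same classes. The difference in the class over 250 bp upstream was 23.6 ± 2.80 percentage points over the replicates (exact sign-flip p = 0.25), where again the opposed start sites limit the divergent peaks. By annotation, 755 member summits (42.9%) lay between genes, 592 (33.6%) in introns, 403 (22.9%) in untranslated parts of exons and 10 (0.568%) in coding sequence.

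Peaks upstream of the start site had higher signal values than peaks on it. The signal value is the authors' own score of a peak, and it was used only to compare peaks of 1 list. Among members it ran from 211 to 8514 with a median of 395. The median was 455 over 250 bp upstream and 438 at 51 to 250 bp upstream, against 304 within 50 bp of the start site. Downstream it was 307 at 51 to 250 bp and 415 over 250 bp. Summits over 50 bp upstream exceeded those within 50 bp by 0.48, 0.49 and 0.57 on the log2 scale in replicates 1, 2 and 3 (difference of log2 medians 0.51 ± 0.05, SD, n = 3; exact sign-flip p = 0.25). All replicates showed the same direction.

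**Figure D2:**
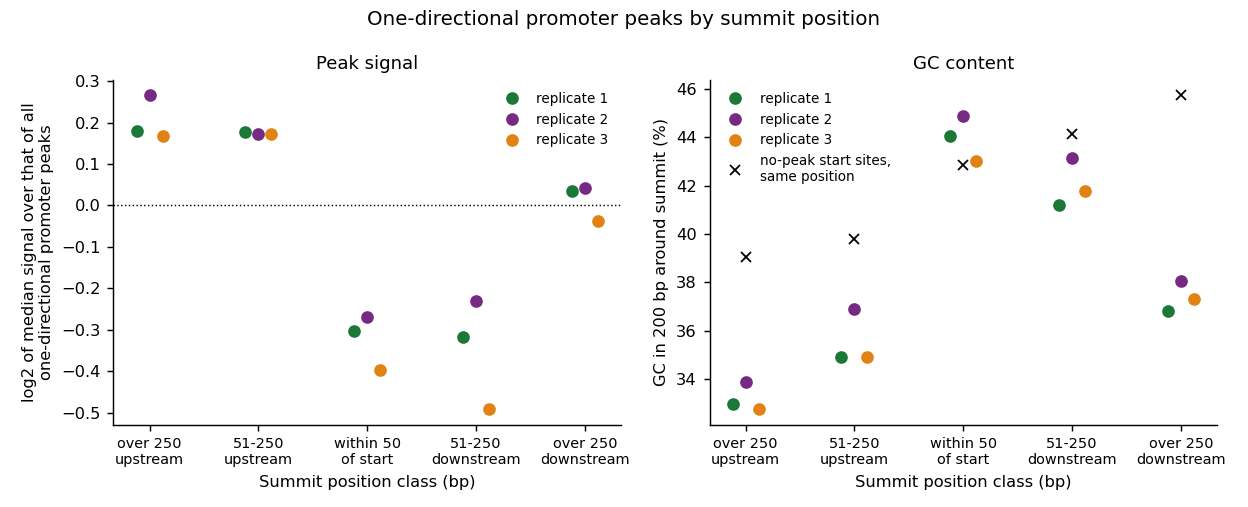
Left, median signal value of each position class relative to that of all one-directional promoter peaks of the same replicate, as log2; right, mean GC content in 200 bp around the summit, with crosses for one-directional start sites without a peak at the class's median position. In every replicate both upstream classes lie above 0 in signal and the classes within 50 bp and 51 to 250 bp downstream lie below it.

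The members were also split by signal value into 5 sets of 352 peaks. The strongest 20% had its median summit at −192 bp and the weakest 20% at −78.0 bp. Within 50 bp of the start site lay 4.55% of the strongest set and 22.2% of the weakest. In replicates 1, 2 and 3 the medians of the strongest and weakest sets differed by −124, −117 and −129 bp (mean −123 ± 6.03 bp, SD; exact sign-flip p = 0.25). Set against other peaks, members as a whole differed little in signal. Their median was lower than that of divergent promoter peaks by 0.13, 0.15 and 0.06 on the log2 scale in replicates 1, 2 and 3 (mean −0.11 ± 0.05, SD, n = 3; exact sign-flip p = 0.25), and within the stronger 50% of each list the mean difference turned to 0.07. The difference from distal peaks, 0.05 ± 0.07, had both signs among the replicates (exact sign-flip p = 0.5).

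Of the 20 members with the highest signal values, 15 lay 51 to 250 bp upstream, 4 over 250 bp upstream and 1 downstream. At CG14100 the signal values were 2144, 2763 and 3664 in replicates 1, 2 and 3, with summits 99, 95 and 99 bp upstream. This peak ranked first or second in every replicate list. The second strongest member lay at px, a wing vein patterning gene, with 1786, 2110 and 2929 and summits 192, 208 and 211 bp upstream. Its rank was 6, 7 and 6. Signal values were highest in replicate 3 at both genes, but values of different lists share no scale, so only the ranks compare.

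The Polycomb gene ph-p, which encodes a subunit of a repressive chromatin complex, carried 2 of the 20 strongest members. One summit lay 482 bp upstream with signal values of 1697, 2424 and 2801 in replicates 1, 2 and 3, and the other 463 bp downstream with 1158, 967 and 1646. The upstream peak ranked 7, 5 and 7 and the downstream peak 35, 80 and 44, so the upstream peak was the higher one in every replicate. The distances were measured from different start sites of the gene, both stood near the edge of the 500 bp window, and the upstream summit of replicate 2, at 509 bp, lay outside it.

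Metabolic and cell biological genes made up part of the rest. Gapdh2 had signal values of 1473, 1517 and 2072 with its summit 165 or 166 bp upstream in each replicate. At Fkbp14, which encodes a prolyl isomerase of the endoplasmic reticulum, they were 1515, 1861 and 2449 with summits 121 to 132 bp upstream. RluA-1, a pseudouridine synthase gene, had 1200, 1380 and 1954 with summits 182 to 191 bp upstream. These 3 genes kept their summits within 11 bp over the replicates. Others of the 20 were aay (phosphoserine phosphatase, 205 bp upstream), Rtnl1 (a reticulon that shapes the endoplasmic reticulum, 273 bp), larp (an RNA-binding regulator of translation, 326 bp), gish (a casein kinase, 153 bp), msi (the RNA-binding protein Musashi, 221 bp) and for (a cGMP-dependent kinase tied to foraging behaviour, 334 bp). CG18549, CG1635, CG1888, CG31145, Tina-1, MFS18 and osp completed them, with summits 84 to 231 bp upstream.

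The few strong summits on or after the start site were at other genes. Within 50 bp the strongest were at Ufsp1 (a UFM1 peptidase gene, 20 bp downstream, signal value 1695 in the thresholded list), CG5001 (15 bp upstream, 1574) and CG5335 (4 bp upstream, 1447). At CG5001 the replicates placed the summit 19, 17 and 15 bp upstream, and at CG5335 1, 6 and 4 bp upstream. Ranked among all members these 3 stood at 113, 127 and 158. At 51 to 250 bp downstream the strongest were GstE13 (a glutathione transferase gene, 75 bp, 3401), CG9399 (74 bp, 2236) and Trpm (a cation channel gene, 150 bp, 1357).

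The DNA under the summits was on average poorer in G and C than the DNA 400 bp to either side. GC content in 200 bp around the summit averaged 36.5%, 38.6% and 36.2% at members in replicates 1, 2 and 3, against 34.3%, 36.0% and 34.4% at divergent promoter peaks. Members were higher in each replicate, by 2.16 ± 0.398 percentage points (SD, n = 3; exact sign-flip p = 0.25). Distal peaks, at 34.8%, 35.7% and 34.7%, were also lower than members in each replicate. At 400 bp upstream of the member summits GC content was 39.9% ± 0.362 and at 400 bp downstream 45.9% ± 0.215. At 11198 one-directional start sites without a peak, a window at the members' median position held 40.1% GC, against 36.9% at the members of the thresholded list.

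**Figure D3:**
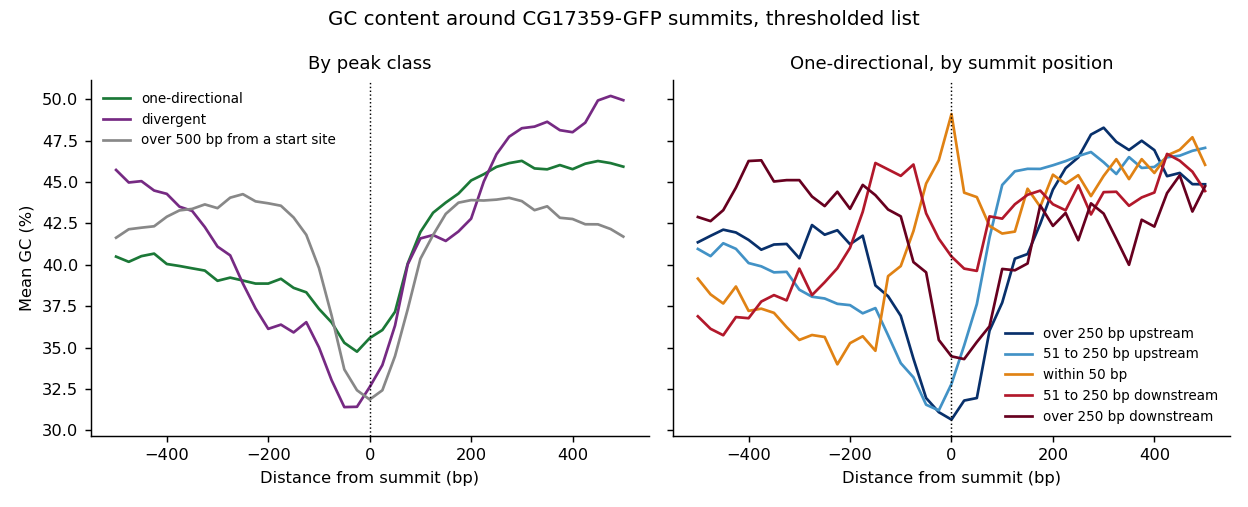
Mean GC content in 25 bp steps around the summit for the 3 peak classes (left) and the 5 position classes of one-directional peaks (right), thresholded list. Positive distances run in the direction of transcription of the nearest gene, and along the forward strand for distal peaks. All classes dip at the summit but the one within 50 bp of the start site, which has a local maximum there, and the one 51 to 250 bp downstream, whose dip lies just after it.

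The dip depended on where the summit lay. GC content was 33.1% over 250 bp upstream and 35.3% at 51 to 250 bp upstream, but 44.3% within 50 bp of the start site. Start sites without a peak held 39.0%, 39.8% and 42.9% at the same median positions. Upstream summits thus stood 5.95 and 4.45 percentage points lower than unoccupied promoters at like positions, and summits on the start site 1.42 points higher. Over 250 bp downstream the members were lower by 8.63 points. Summits over 50 bp upstream and those within 50 bp differed by −9.99, −9.08 and −8.96 points in replicates 1, 2 and 3 (mean −9.34 ± 0.566, SD; exact sign-flip p = 0.25). From the weakest to the strongest of the 5 sets by signal value, GC content was 40.4%, 38.8%, 36.8%, 34.7% and 33.6% in the thresholded list.

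Known promoter and insulator elements were searched as exact letters on both strands within 50 bases of each summit, and in windows of the same size 500 bp to either side. Of the 13 elements, 9 were more frequent at the summit than in both flanks. The TATA box, searched as TATAAA, was found at 19.4% of member summits, 16.3% of upstream flanks and 8.64% of downstream flanks. Ohler motif 7, searched as CATCNCTA, CATCNCTG, CAGCNCTA or CAGCNCTG, was found at 6.93%, against 2.78% and 2.95% in the upstream and downstream flanks. The DRE was found at 1.65% (29 members), against 0.114% and 0.0568%, and Motif 1 at 1.59% (28 members), against 0.114% and 0.284%. Ohler motif 6, searched as GTATATTT or GTATTTTT, was found at 4.20%, against 2.56% and 1.93%, and the CTCF core at 1.99%, against 1.19% and 1.08%. The BEAF-32 core CGATA, which is contained in the DRE, was found at 15.2%, against 13.4% and 11.7%.

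The other elements were below their flanks at the summit or above them by small amounts. GAGA, searched as GAGAG, was found at 11.4% of summits, against 13.2% of upstream and 15.6% of downstream flanks. The Zelda site CAGGTAG, bound by the activator of the zygotic genome, was found at 0.284% (5 members), against 0.682% and 0.739%. Pho sites, searched as GCCATNTT, were at 2.16%, against 1.59% and 1.48%, and the Su(Hw) core at 0.795% (14 members), against 0.625% and 0.284%. Both, like the CTCF core, were above their flanks by less than 1 percentage point. The Initiator (9.03%, against 8.41% and 10.7%) and the E-box CAGCTG (4.55%, against 4.26% and 4.66%) lay between their flanks. At the 11198 one-directional start sites without a peak, windows at the members' median position held the DRE at 0.670%, Motif 1 at 0.304%, Ohler motif 7 at 3.02%, GAGA at 16.1% and the TATA box at 15.4%. They held CGATA at 13.8%, Pho sites at 1.80%, the Su(Hw) core at 0.750% and Ohler motif 6 at 2.86%. The CTCF core was at 0.831%, the Initiator at 9.72%, CAGCTG at 4.74% and the Zelda site at 0.732%. In windows centred on those start sites, the DRE was found at 2.22%, Motif 1 at 2.54%, Ohler motif 7 at 5.77%, the Initiator at 26.9%, GAGA at 13.0% and the TATA box at 17.8%. Divergent promoter summits held the DRE at 3.80%, Motif 1 at 1.95%, Ohler motif 7 at 10.7% and the TATA box at 25.1%. Distal summits held them at 0.112%, 0.225%, 2.11% and 24.3%, so TATAAA was more frequent there than at members.

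The elements were not spread evenly over the members. Within 50 bp of the start site the DRE was at 15 of 269 summits (5.58%), Motif 1 at 16 (5.95%) and Ohler motif 7 at 42 (15.6%). Over 250 bp upstream the same elements were at 1, 3 and 18 of 473 summits. The TATA box had the opposite order, at 24 summits (8.92%) within 50 bp and 112 (23.7%) over 250 bp upstream. In the replicates the DRE was at 5.75% ± 1.19 of summits within 50 bp and at 0.350% ± 0.235 of those over 250 bp upstream, and the TATA box at 8.01% ± 0.678 and 23.9% ± 0.714 of the same classes (SD, n = 3). Neither pair of classes overlapped among the replicates.

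**Figure D4:**
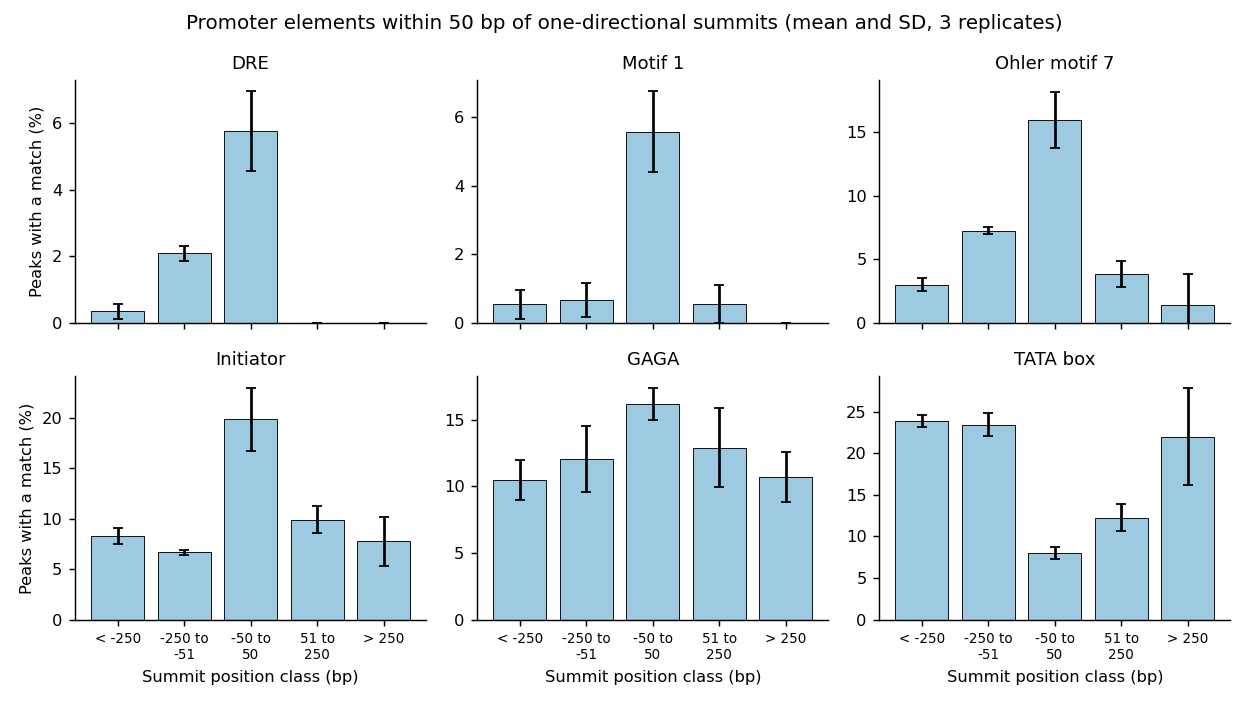
Share of one-directional promoter peaks with a match within 50 bp of the summit, by summit position class (negative is upstream); bars are means and error bars SDs over 3 replicates, and each panel has its own axis from 0. DRE, Motif 1, Ohler motif 7 and the Initiator are highest in the class within 50 bp of the start site, and the TATA box is lowest there.

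The strongest members with a DRE at the summit were Alg3 (80 bp upstream, signal value 2557), CG1827 (130 bp upstream, 2291) and the elongation factor gene eEF1gamma (32 bp upstream, 1312), whose summit also held Ohler motif 7 and a Pho site. Motif 1 was held most strongly by RpL30 (12 bp upstream, 1029), eEF1alpha1 (43 bp upstream, 675) and RpL27A (9 bp upstream, 609), all genes of the translation machinery. Members with a Su(Hw) core included fray (274 bp upstream, 2155) and CG3961 (324 bp upstream, 2102). At fray the signal values were 539, 617 and 972 in replicates 1, 2 and 3, with ranks of 249, 228 and 185. The 14 members with a Su(Hw) core had a median signal value of 827, against 395 for the others. Of these 14, 8 lay over 250 bp upstream, the position class with the highest median signal value. The core itself was about as frequent at members (0.795%) as in no-peak windows at their median position (0.750%). Divergent summits held it at 1.67% and distal summits at 1.42%. CG8051 (223 bp upstream, 1228), dco (322 bp upstream, 869) and Obp99b (240 bp upstream, 753) led the 35 members with a CTCF core, whose median was 404, against 395 without one.

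A window around a summit within 50 bp also covers the start site, where these elements usually lie, so windows centred on the start site itself were compared too. There the DRE was at 5.95% of promoters with a summit within 50 bp, 4.16% of those with a summit 51 to 250 bp upstream and 0.846% of those with one over 250 bp upstream. Motif 1 was at 6.69%, 4.29% and 3.17% and Ohler motif 7 at 43 of 269, 83 of 746 and 19 of 473. The Initiator, searched as TCAGTT or TCAGTC, had another order, with 20.8%, 21.6% and 34.9%. The TATA box near the start site was at 9.67%, 7.91% and 9.51%, against 17.8% of start sites without a peak. TATA matches at member summits had a median position of −194 bp, and those members had a median signal value of 477, against 378 for members without one. The counts of TATAAA at these summits were 210 on the strand of the gene and 193 on the other strand. In the strongest 20% of members TATAAA was at 28.9% ± 1.19 of summits, against 15.3% ± 1.62 in the weakest 20% (SD, n = 3; difference 13.6 ± 0.434 percentage points, exact sign-flip p = 0.25), while GC content was lower there, as given above. The part of base composition in the TATAAA counts was not tested.

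Among genes grouped by function, the cytoplasmic ribosomal protein genes, whose products build the ribosome, had the highest share of the 20 lists. Of 33 with a one-directional promoter, 23 (69.7%) carried a peak, against 15.3% of all one-directional genes. Divergent genes of this list also had a high share, with 48 of 53, against 38.8% of all divergent genes. For the one-directional genes of the list the replicates gave 27, 24 and 20 of 33. Their 25 member peaks also lay elsewhere: the median summit was at −10 bp and 16 of 25 (64.0%) lay within 50 bp of the start site, against a median of −142 bp and 14.6% for the other members. The median was at −19, −7 and −11 bp in replicates 1, 2 and 3 for ribosomal protein genes, against −147, −115 and −154 bp for the others. The ranges did not overlap. The strongest were RpL24 (10 bp upstream, signal value 1296), RpL23A (75 bp upstream, 1291) and RpL30 (12 bp upstream, 1029). In the replicates RpL24 had its summit at 4, −7 and −11 bp and RpL30 at −14, −13 and −11 bp.

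Several other groups of housekeeping genes were near or below the 15.3% of all one-directional genes. Mitochondrial ribosomal protein genes had 1 of 15, oxidative phosphorylation genes 5 of 41, proteasome genes 2 of 19 and vacuolar proton ATPase genes 3 of 19. Leaving out a replicate kept only the thresholded peaks overlapped by a strong peak in both other replicates, so counts could not rise. Without replicates 1, 2 and 3 the share of all one-directional genes fell to 12.4%, 12.3% and 12.3%. The oxidative phosphorylation count was then 3, 2 and 1. The proteasome count was 1 without replicate 2 or 3, and the ATPase count 1 without replicate 2. Aminoacyl-tRNA synthetase genes had 2 of 10 (1 without replicate 1 or 3), splicing factor genes 0 of 5 and nuclear pore genes 0 of 4. Translation factor genes were above that share, with 6 of 26 (23.1%), led by eIF6 (111 bp upstream, signal value 3310), eEF1gamma (32 bp upstream, 1312) and eEF1alpha1 (43 bp upstream, 675). The chaperonin and heat shock genes had 5 of 19 (26.3%), among them the small heat shock genes Hsp27 (136 bp upstream, 3106), Hsp26 (118 bp upstream, 927) and Hsp22 (457 bp upstream, 813). None of the 154 one-directional chemoreceptor genes and 2 of 109 cuticle protein genes carried a peak, and the replicates gave 0 chemoreceptor genes and 3 cuticle genes each.

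Developmental regulators were occupied to different degrees, against the 15.3% of all one-directional genes. Of 24 one-directional neural genes 10 (41.7%) carried a peak, with 9, 10 and 8 in replicates 1, 2 and 3. They were led by elav (a neuronal RNA-binding protein, 255 bp upstream, signal value 2574), numb (a Notch inhibitor in asymmetric division, 143 bp upstream, 1209) and E(spl)m3-HLH (a Notch target, 415 bp upstream, 1164). Many of these summits lay far from the start site: with a window of 250 bp the count was 5 of 24, against 11.4% of all one-directional genes. Dorsoventral and mesoderm genes had 7 of 22 (31.8%), with sls (the muscle protein titin, 275 bp upstream, 1372), tin (a heart regulator, 196 bp upstream, 1299) and htl (an FGF receptor, 397 bp upstream, 720). Hox and head gap genes, with 4 of 21 (19.0%; replicate mean 15.9% ± 2.75), and pair-rule and segment polarity genes, with 3 of 19 (15.8%; 14.0% ± 3.04), were near that share (SD, n = 3). The Hox and head gap genes included hb (a gap gene, 295 bp downstream, 864), bcd (the anterior determinant, 202 bp upstream, 636) and abd-A (a Hox gene, 105 bp downstream, 521). The pair-rule and segment polarity genes were sgg (185 bp upstream, 1756) and nkd (151 bp upstream, 1470) of the Wingless pathway and ci (122 bp upstream, 266) of the Hedgehog pathway.

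Chromatin factor genes were also among the members. Polycomb and Trithorax group genes had 4 of 11 (36.4%), with ph-p and Trl, and insulator and core promoter factor genes 4 of 10 (40.0%), with Trl, BEAF-32 and psq, against 15.3% of all one-directional genes. The lists are short, and the replicates gave 6, 5 and 4 Polycomb and Trithorax genes and 3, 7 and 4 insulator and core promoter factor genes. Trl, which encodes GAGA factor and is on both lists, had its strongest summit 111 bp downstream with signal values of 295, 323 and 444 in replicates 1, 2 and 3. BEAF-32 had 168, 259 and 239 with summits 64 to 89 bp upstream. Cell cycle genes had 5 of 16 (31.3%), including Dp (a partner of E2F) and CycE. Without replicate 2 or without replicate 3 the count was 3 of 16, against 12.3% of all one-directional genes. With a window of 250 bp it was 2 of 16, against 11.4%, so the list was then near the share of all one-directional genes. Where only the stronger peaks of the list were kept, it was 1 of 16, against 8.32%. Of the 10 one-directional ZAD genes only Sry-delta carried a peak in the thresholded list (26 bp upstream, signal value 620), and the replicates gave 1, 3 and 2. CG17359 itself has a one-directional promoter and had no thresholded summit within 500 bp of a start site.

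**Figure D5:**
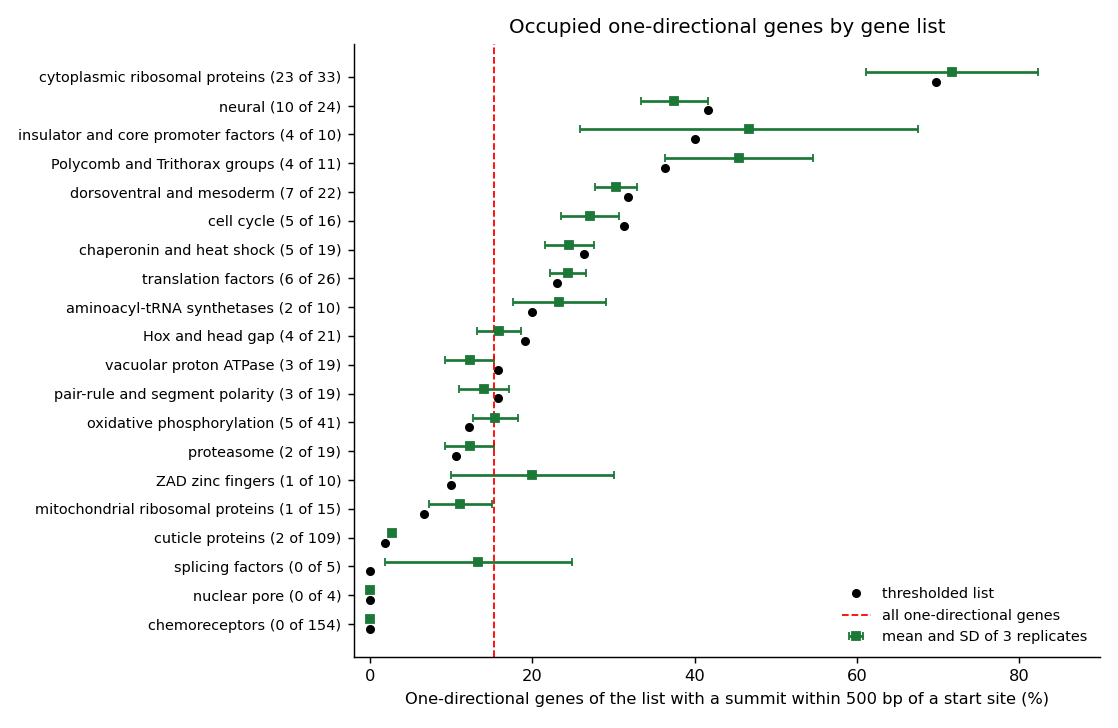
Share of the one-directional genes of each of 20 lists that had a summit within 500 bp of a start site; black points are the thresholded list with its counts in the labels, green squares and bars the mean and SD over 3 replicates, and the dashed line all one-directional genes (15.3%). Cytoplasmic ribosomal protein genes lie far above the line, and chemoreceptor and cuticle protein genes below it.

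The member genes had more annotated start sites than unoccupied ones. Of 1327 member genes with no divergent start site, 669 (50.4%) had several start sites, against 1421 of 7528 one-directional genes without a peak (18.9%). A gene with more start sites has more windows in which a summit can fall, so part of this gap follows from the rule. The shares of the gene lists count a summit at any start site in the same way. How far the number of start sites enters those shares was not tested. One member peak was found at 1295 genes, 2 at 170 and 3 or more at 37. Peaks of the list can overlap, so these counts can hold 1 replicate peak more than once. The 2 members at the proteasome gene Rpn11 overlapped each other, and in each replicate the same peak matched both. The genes Ptpmeg2, Rtnl1, Svil and dnc had 5 each and 6, 7, 16 and 9 start sites. At dnc, a cAMP phosphodiesterase gene, the members ran from 270 to 2359 in signal value.

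The neighbouring gene upstream was on the same strand at 849 of 1502 member genes (56.5%) and at 4247 of 7804 genes with a one-directional start site and no peak (54.4%). Its median distance was 698 bp at member genes and 585 bp at the others. Where a same-strand neighbour ended within 500 bp, the member summit had a median position of −81.5 bp, against −206 bp where the neighbour ended over 2000 bp away. The start site lay inside another gene at 11.1% of member genes and 20.3% of genes without a peak. Member genes were measured from the start site nearest their strongest summit, which was often an internal one. Genes without a peak were measured from their most upstream one-directional start site. These comparisons of neighbours therefore set unlike start sites side by side. By chromosome arm, 18.8% of one-directional genes on X carried a peak, against 14.7% on the other arms. The difference was 3.09, 2.52 and 4.16 percentage points in replicates 1, 2 and 3 (mean 3.26 ± 0.831, SD; exact sign-flip p = 0.25), and replicate shares on X averaged 18.4% ± 0.0817. On chromosome 4, 13 of 58 one-directional genes carried a peak.

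Peaks just inside and just outside the limits of the rule had overlapping signal values. The members nearest the 500 bp limit were at CG3348 and CG3630, both at 500 bp, with signal values of 706 and 593. The nearest peaks outside were at Cpr67Fa1 (501 bp, 232) and Mtp (503 bp, 430). The median was 466 for the 87 members in the last 50 bp inside that limit and 474 for the 82 peaks in the first 50 bp outside it. For the opposite start site, the nearest members had one at 1007 bp (CG11961, signal value 375) and 1012 bp (CG9992, 1038), and a pair of divergent promoter peaks at hts had one at 999 bp (491 and 291).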

How the data were processed

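Per the labels and the text files deposited with the lists, each of the 3 replicate lists was called against 1 shared control in dm6, and the thresholded list was derived from the replicate lists and a pooled list (not used here). Which aligner, peak caller and reproducibility threshold were used is not given in the sources used here. Each peak's signal value, its scale not stated, was deposited by the authors and compared only within a list. The −log10 q-values the authors deposited were not used. Summit offsets are the authors' own. Each replicate list held 30000 peaks, of which the strongest 7287, the length of the thresholded list, were used for errors.

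Start sites came from the Ensembl release 115 annotation of protein-coding genes on the chromosome arms (13945 genes), and sequence from the Release 6 reference. GC was taken over 200 bp and elements over 101 bp. Differences between classes were tested by exact sign-flip permutation over replicates, with no adjustment, since p cannot go below 0.25. Binomial error covers counting of peaks only, and depth is unknown. The members, 20 gene lists (12 names unmatched) and 13 elements were chosen with earlier results of these data known. Named genes were the 20 strongest members, the 3 strongest of each list, position class and element, and those at the rule's limits; genes with several peaks were chosen after their values were seen. Not every gene that the rule names is reported here. Scripts used Python 3.11.15, numpy 2.4.6, pandas 2.3.3 and scipy 1.17.1, and were tested on simulated data.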

Additional observations from a re-analysis of the deposited data

How the results depend on the processing

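No paired analysis was possible because all samples belonged to 1 group, which leaves no groups to pair. Differences between peak classes were taken within each replicate. The stronger 50% of the list held 899 members. The share of one-directional genes with a peak was 11.4% and 18.8% with windows of 250 and 1000 bp, 17.0% with opposite start sites counted within 500 bp, 8.32% in the stronger 50%, and 12.3% to 12.4% without one replicate. The last setting kept only thresholded peaks overlapped by a strong peak in both other replicates, and the stronger 50% is likewise a part of the list. Under both settings this share can only fall. The median position was −96 bp with a window of 250 bp, −171 bp in the stronger 50% and 5 bp from the most upstream start site of the gene. The upstream share was 73.2% and 71.5% with windows of 250 and 1000 bp, 84.6% in the stronger 50%, 49.4% from the most upstream start site, and 78.1% to 79.7% without one replicate. GC content was 38.4% with a window of 250 bp, 34.7% in the stronger 50% and 39.0% over 400 bp. A replicate peak held the summit of 84.8% of members, and 99.2% were overlapped when all peaks of each list were used. The difference from divergent peaks reversed to 63.3 bp for position from the most upstream start site and to 0.0653 for log2 signal in the stronger 50%, and that from distal peaks to −0.0267 for log2 signal with a window of 250 bp. With that window the position difference from divergent peaks kept its sign but shrank to −10 bp. The cause was not tested. The number of elements more frequent at the summit than in both flanks was 9 to 10, and that of lists above the share of all one-directional genes 9 to 12. The difference between summit and flanks changed sign for GAGA and the Initiator with a summit window of 100 bp either side (to 0.511 and 1.96 percentage points), for the Initiator with flanks of 1000 bp (to 0.511), and for CAGCTG with a summit window of 25 bp (to −0.824), in the stronger 50% (to −0.612) or with flanks of 1000 bp (to −0.0568). Of 135 comparisons of main values with another setting, 111 were kept. A difference between classes counted as kept if its sign did not change, whatever its size. Counts and other values had to stay within a set margin of the main value. The comparisons by summit position within the members, over 50 bp upstream minus within 50 bp, were chosen after the data were seen and kept their direction under every setting run. Depth is unknown, so it cannot be said how far it limits the weaker peaks.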
